A study of Rattus norvegicus with 9 samples.

Results

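A set of 27 genes was low in rat mesangial cells of an LPS model and higher both in control cells and in cells given a leech extract. The 27 were selected on their measured values, out of the 12192 genes that averaged 1 TPM or more across the 9 libraries (30560 genes are in the table). TPM is each gene's share of the transcripts of a library, scaled to a total of 1000000. On the log2(TPM + 1) scale, a member's mean had to be lower by at least 1 in LPS than in control cells and higher by at least 1 in extract than in LPS cells. All 3 LPS values also had to lie below every control and every extract value, and the extract mean had to exceed the control mean by less than 1. The low LPS level and the higher extract level are therefore what chose the genes and not findings about them.

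The cells were HBZY-1, an established rat line of glomerular mesangial origin, with 3 libraries in each of 3 groups. The groups are control, LPS-induced, and a high dose of a water extract made from lyophilized powder of the leech Poecilobdella manillensis. The labels give no dose or exposure time, and do not say whether control cells got a vehicle or whether extract cells also got LPS. The series calls the replicates biological, without naming separate cultures, so the spread given here may be partly technical. All the libraries come from 1 cell line, so nothing here speaks of variation between animals.

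Mesangial cells hold the capillary loops of the glomerulus together, contract like smooth muscle and make the matrix around them. LPS, a component of the outer membrane of Gram-negative bacteria, is sensed by Toll-like receptor 4 and switches on NF-kB and interferon-regulated genes, while many other transcripts decline. Such a decline can come from less transcription or from faster decay, which a level measured at a single time does not separate. Blood-feeding leeches are known for salivary proteins that inhibit clotting, and dried leech is used in traditional medicine. The series addresses whether the extract lessens inflammatory injury of these cells.

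Ensembl identifiers are given in the files without gene names, and none of them matched the RefSeq table supplied, of assembly GRCr8 with 47357 genes. The functions, promoters and pathways of the members were therefore not analysed here, and the labelled cell type was not checked against its markers. The members are numbered 1 to 27 by falling mean TPM in control cells. Identifiers are printed for the pair with the largest LPS-control differences (members 11 and 6) and for the pair with the largest extract-LPS differences (members 2 and 13). Each library had between 11954 and 12104 genes at 1 TPM or more. TPM does not keep the number of reads, so the depth is unknown and the precision rests on the spread between libraries. In bulk RNA, fewer cells that express a gene and less RNA per cell cannot be told apart.

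Of the 12192 genes, 207 were lower by at least 1 in LPS than in control cells. In 33 of these the extract mean was lower than the LPS mean, in 127 it was higher by less than 1, and in 47 it was higher by at least 1. The LPS values lay below all other values in 33 of the 47. Of these 33, 6 had an extract mean above control by at least 1 and were set aside by the rule, which left the 27. The same rule with every sign turned kept 71 genes, in which LPS cells stood above both other groups. It sets no fixed limit on how far extract cells may stay above control, only that they stand at least 1 below LPS cells. No gene under 1 TPM met the rest of the rule. With 1 added to TPM, both differences of 1 need control and extract levels of about 1 TPM or more, so few such genes could. In the plane of changes from control, the 27 lie in the wedge to the left of the cloud of all genes.

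**Figure D1:**
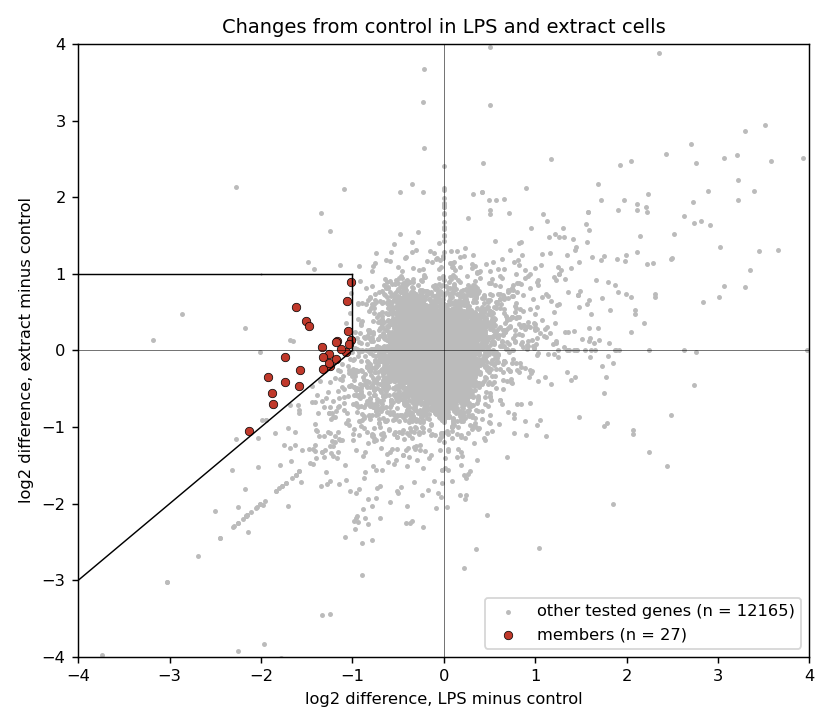
Each point is 1 of the 12192 genes tested, with the log2(TPM + 1) difference of LPS minus control on the x axis and of extract minus control on the y axis; 17 genes lie outside the plotted range of 4. The 27 members (red) lie in the area bounded by the black lines, which mark the fold limits of the rule, and grey points inside it are genes whose LPS values overlapped another group.

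The 27 members ranged from 2.69 to 134 TPM in control cells, with a median of 11.6 TPM, against a median of 20.04 TPM over all genes tested. In LPS cells they ranged from 0.473 to 65.8 TPM, and in extract cells from 2.48 to 147.5 TPM. In LPS cells the members stood at 12.2% to 49.1% of their control mean, with a median of 32.6%. Together they made up 0.0556% to 0.0606% of the TPM of a control library, 0.0193% to 0.023% of an LPS library and 0.0617% to 0.0638% of an extract library. The mean over the 3 LPS libraries was under 1 TPM for 4 members, and the other 23 had a mean of at least 1 TPM in every group. All 27 were called lower in LPS than in control cells (limma, a moderated linear model, adjusted p below 0.05), as were 30.9% of the genes tested, while 9.79% were called higher. That excess of lower calls (1193 higher, 3769 lower) depended on scaling, with 2102 higher and 2278 lower after median-of-ratios rescaling and 1940 and 2402 after quantile normalization. The first divides each library by its median ratio to the average library, and the second gives all libraries the same distribution of values. All 27 were likewise called higher in extract than in LPS cells, as were 34.4% of genes, while 25.0% were called lower. The rule used both contrasts, so these calls add nothing to it.

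**Figure D2:**
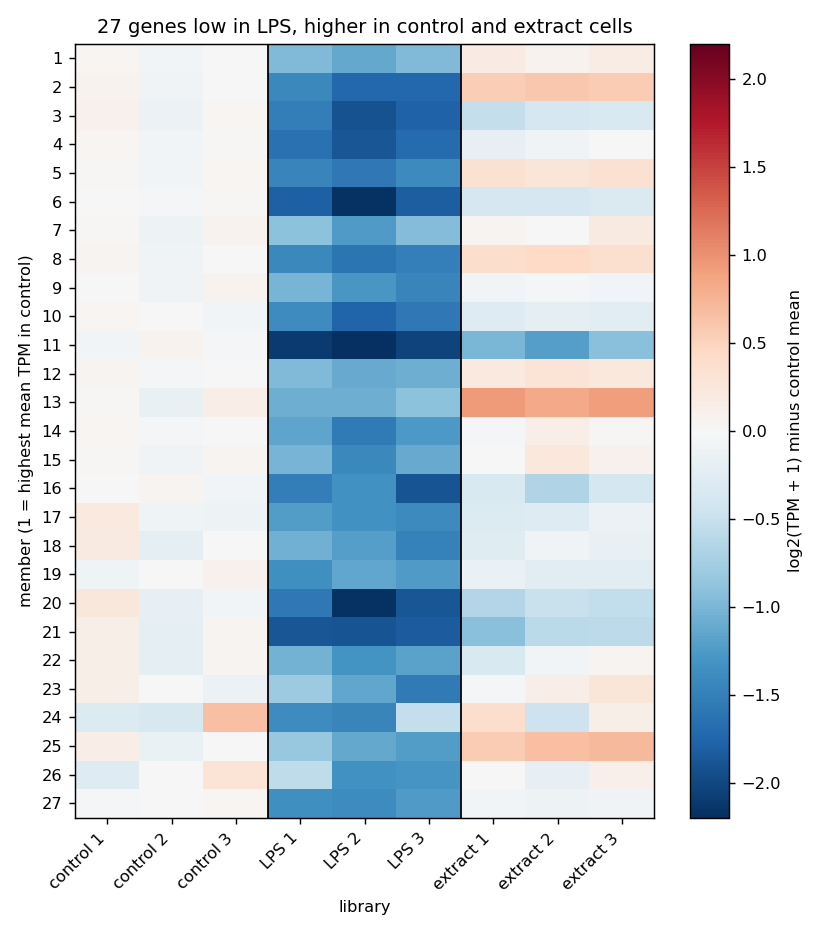
Rows are the 27 members in the order of their control level and columns are the 9 libraries; the colour gives log2(TPM + 1) minus the mean of the 3 control libraries. The LPS columns are blue in every row, while the extract columns run from red (members 2, 13 and 25) to blue (members 11, 20 and 21).

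The rule held the extract mean to less than 1 above control. By asking for an extract mean at least 1 above LPS, it also limited how far extract could lie below control. That limit was tighter the smaller the LPS-control difference. Members lay on both sides of the control level. In 10 members all 3 extract values lay below every control value, in 10 the values of both groups overlapped, and in 7 all extract values lay above every control value. Over all genes tested, 34.8% lay fully below control and 26.2% fully above, against 37% and 25.9% of the members, so the members' shares are near the background. The rule partly set these shares, so their nearness to the background is not a result about the members. LPS-control differences ran from -2.13 to -1.25 in the members below control and from -1.62 to -1.02 in those above. In the limma fit, 7 members were called lower and 6 higher in extract than in control cells, beside 29.4% and 22.3% of the genes tested, and 14 were not called. The median extract-control difference of the members was -0.05 on the log2 scale, with a range of -1.05 to 0.90, and over all genes it was -0.04. The 10 overlapping members became 18 when the members were chosen without LPS replicate 1, and the 7 above control became 12 without control replicate 2. After median-of-ratios rescaling, 22 of the 27 met the rule and no other gene did, and 4 of the 22 lay fully above control. The 5 that no longer met it were members 1, 7, 12, 13 and 25, and all of these but member 7 had been among the 7 above control. The same 5 missed the rule after quantile normalization.

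**Figure D3:**
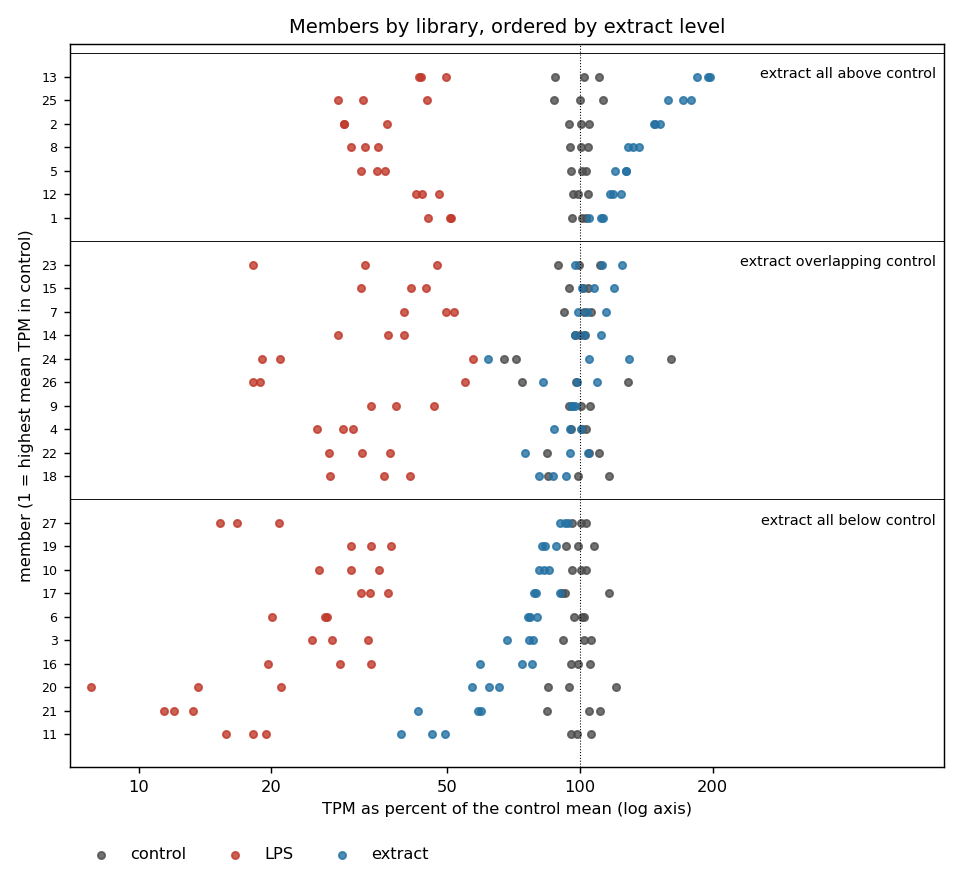
Each point is 1 library of a member, as a percent of the member's control mean on a log axis, with members grouped by whether their extract values lay below, overlapped or lay above the control values. LPS points (red) lie left of all other points of the same row, and the extract means run from 45% of control for member 11 to 192% for member 13 (extract points in blue).

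Among the 10 members below control in extract cells was ENSRNOG00000011631 (member 11), which had the largest LPS-control difference of the set. It measured 14.7, 16.2 and 15.1 TPM in the control libraries, 2.78, 2.42 and 2.98 TPM in the LPS libraries and 7.09, 6.02 and 7.58 TPM in the extract libraries. No values overlapped between any 2 groups, and the extract libraries lay between the other 2 groups. Its difference was -2.13 ± 0.089 (SE) from control to LPS and 1.08 from LPS to extract on the log2 scale. Extract cells thus stood at 45% of the control mean, the lowest such value among the members.

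ENSRNOG00000008479 (member 6) had the next largest LPS-control difference, -1.93 ± 0.088 (SE) on the log2 scale. It stood at 35.2, 33.8 and 35.5 TPM in control, 9.31, 6.98 and 9.2 TPM under LPS and 26.8, 26.6 and 27.8 TPM in extract libraries. The extract values were tightly grouped and lay wholly between the other groups, at 77.8% of control. Member 3 ran close to it, with 46.0, 39.6 and 44.4 TPM in control, 14.3, 10.7 and 11.9 TPM under LPS and 29.6, 33.2 and 34.0 TPM in extract libraries. Member 10 measured 19.5, 19.0 and 18.1 TPM in control, 6.6, 4.82 and 5.69 TPM under LPS and 15.2, 16.1 and 15.7 TPM in extract libraries. In both, every extract library lay in the gap between LPS and control.

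The other members below control were less abundant. Member 16 had 10.4, 10.99 and 9.98 TPM in control, 2.99, 3.52 and 2.05 TPM under LPS and 8.12, 6.21 and 7.73 TPM in extract libraries. Member 20 had 6.66, 4.67 and 5.19 TPM in control, 1.16, 0.43 and 0.75 TPM under LPS and 3.13, 3.62 and 3.42 TPM in extract libraries. Member 21 had 5.35, 4.06 and 5.07 TPM in control, 0.58, 0.55 and 0.64 TPM under LPS and 2.07, 2.83 and 2.88 TPM in extract libraries. Members 20 and 21 followed the pair above in the size of the LPS-control difference (-1.88 and -1.87 on the log2 scale), and their extract means were 61.6% and 53.7% of control. The gap between extract and control was narrower in the remaining 3 members, numbers 17, 19 and 27, whose extract means were 82.9%, 84.5% and 92.2% of control and which were not called in extract versus control. Member 27 was the least abundant in control, at 2.58, 2.7 and 2.78 TPM, with 0.45, 0.41 and 0.56 TPM under LPS and 2.52, 2.42 and 2.49 TPM in extract libraries. Its control and extract libraries lay close together within each group.

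In the 10 overlapping members the extract means lay between 86.9% and 111% of control. Member 4, the most abundant of them, measured 43.5, 40.2 and 42.7 TPM in control, 12.9, 10.7 and 12.3 TPM under LPS and 36.9, 39.9 and 42.5 TPM in extract libraries. Its LPS mean was 28.3% and its extract mean 94.4% of control. Member 9 had 22.4, 21.0 and 23.5 TPM in control, 10.4, 8.53 and 7.49 TPM under LPS and 21.4, 21.7 and 21.4 TPM in extract libraries. The extract libraries of member 9 fell inside its control range. Member 7 had 32.0, 28.8 and 33.2 TPM in control, 16.3, 12.6 and 15.6 TPM under LPS and 32.5, 31.0 and 35.8 TPM in extract libraries, so that LPS cells kept 47.2% of the control level.

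Members 14 and 15 had nearly equal levels in each library. Member 14 measured 11.9, 11.3 and 11.6 TPM in control, 4.63, 3.29 and 4.26 TPM under LPS and 11.3, 12.9 and 11.9 TPM in extract libraries. Member 15 measured 11.2, 10.4 and 11.5 TPM in control, 4.94, 3.52 and 4.57 TPM under LPS and 11.1, 13.2 and 11.9 TPM in extract libraries. The ratio of member 14 to member 15 stayed between 0.932 and 1.09 in the 9 libraries. It was among the steadiest found in a search of all 351 pairs of members, which the rule chose for a shared low LPS level. Near-identical copies of a gene can share reads and so show like values. Whether this pair does was not tested, and members 1 and 7, at unlike levels, kept as steady a ratio (4.08 to 4.85). No member had values identical to another gene in every library.

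The least abundant overlapping members were the most scattered. Member 24 measured 3.01, 2.84 and 6.78 TPM in control, 0.88, 0.8 and 2.41 TPM under LPS and 5.44, 2.6 and 4.41 TPM in extract libraries. Its highest LPS value lay 0.19 TPM under its lowest extract value. Member 26 measured 2.11, 2.8 and 3.67 TPM in control, 1.57, 0.52 and 0.54 TPM under LPS and 2.81, 2.36 and 3.12 TPM in extract libraries. Both were kept in only 5 of the 9 choices of members that leave out 1 library. The standard errors of their LPS-control differences, 0.342 and 0.225 on the log2 scale, were the highest of the set. Members 18, 22 and 23 had control means of 8.05, 4.63 and 4.24 TPM and extract means of 7.0, 4.24 and 4.72 TPM.

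Of the 7 members above control in extract cells, ENSRNOG00000016156 (member 2) had the largest extract-LPS difference of the set. It measured 66.5, 59.7 and 63.7 TPM in control, 23.2, 18.5 and 18.5 TPM under LPS and 93.0, 96.3 and 93.8 TPM in extract libraries. Every extract library exceeded every control library by more than the spread within either group. Its log2 difference was -1.62 ± 0.079 (SE) from control to LPS and 2.19 from LPS to extract, and the extract mean was 149% of control. ENSRNOG00000021513 (member 13) followed with an extract-LPS difference of 1.91. It had 13.9, 12.0 and 15.1 TPM in control, 5.97, 5.91 and 6.8 TPM under LPS and 26.9, 25.1 and 26.7 TPM in extract libraries. Its extract mean, 192% of control, was the highest among the members. Member 13 also had the smallest LPS-control difference, -1.02 ± 0.082 (SE), and was among the 5 that missed the rule after rescaling.

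Members 5 and 8 resembled each other in the 3 groups, and their ratio too was among the steadiest of the 351 pairs searched. Member 5 stood at 36.0, 33.9 and 36.8 TPM in control, 12.4, 11.3 and 12.8 TPM under LPS and 45.1, 42.8 and 45.2 TPM in extract libraries. Member 8 stood at 27.01, 24.6 and 26.1 TPM in control, 9.02, 7.85 and 8.43 TPM under LPS and 34.1, 35.3 and 33.2 TPM in extract libraries. Their extract means were 125% and 132% of control, and both had an LPS mean at about the same share of control (34.2% and 32.6%). Member 25 was low throughout, with 4.49, 3.48 and 4.0 TPM in control, 1.8, 1.29 and 1.13 TPM under LPS and 6.31, 6.85 and 7.14 TPM in extract libraries, where it reached 170% of control. Member 12 had 15.2, 14.1 and 14.4 TPM in control, 6.98, 6.19 and 6.38 TPM under LPS and 17.1, 18.1 and 17.3 TPM in extract libraries. Member 1, the most abundant of the set, had 139, 128.5 and 135 TPM in control, 68.3, 60.9 and 68.3 TPM under LPS and 151, 141 and 150.2 TPM in extract libraries. Its extract values cleared the highest control value narrowly, and it was not called in extract versus control.

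The extract-LPS difference was set beside the LPS-control difference of each member, as a percent on the log2 scale, where 100% means an extract mean equal to control. This ranged from 50.7% in member 11 to 188% in member 13, with a median of 96.1%. It was under 100% in 15 members and at least 100% in 12. The rule required an extract-LPS difference of at least 1, so a small LPS-control difference allowed only a high percent. These percents are therefore partly set by the choice of the members. The 180 other genes lower by at least 1 in LPS cells had a median extract-LPS difference of 0.24 and a median extract-control difference of -1.16. The rule fixes the difference between these genes and the members.

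By the median coefficient of variation, the members varied most in the LPS group (15.5%, against 5.55% in control and 7.0% in extract cells). Not every member did so. Member 21 had an SD of 0.679 TPM at a mean of 4.83 TPM in control, against 0.0458 TPM at 0.59 TPM in LPS cells. For the 9 members with at least 20 TPM in control, the coefficient of variation between libraries had a median of 4.71% in control, 13.4% under LPS and 3.13% in extract cells. The 6431 genes tested within the range of LPS levels of these 9 had a median of 5.1% in LPS cells. That range is not a close match in level. Its top, 65.8 TPM, is member 1, and the next highest LPS mean was 20.05 TPM (member 2). In 20 of the 27 members the lowest LPS value was that of LPS replicate 2, which was the lowest of its group in 46.7% of all genes tested. After rescaling of the libraries replicate 2 was the lowest in 16 members and in 33.1% of genes, and the median coefficient of variation of the 9 members in LPS cells was 12.0%. Without LPS replicate 2, the median LPS-control difference of the 27 went from -1.32 to -1.29, and 21 of the 27 still met the rule. A low value in 1 LPS library lowers the LPS mean that the rule used. The spread in LPS cells and the low replicate 2 are therefore partly set by the choice of the members. Control replicate 2 was the lowest control library in 19 members and in 38.3% of all genes.

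Most members had 1 main transcript. With transcripts linked to genes by their order and sums, 20 of the 27 had a single transcript with a mean of at least 1 TPM. The other 7 had 2 or more, or 25.9% against 40.0% of all genes tested. The members were less abundant, with a median of 9.15 TPM over the 9 libraries against 19.48 TPM. A lower gene level leaves less room for a second transcript of 1 TPM, and the shares were not matched for level. Among the 20, the leading transcript made up as little as 57.9% of the gene in control cells (member 24). The 27 members had 38 such transcripts. Their values sum to the gene values that the rule used, so their lower LPS levels are not a separate finding. The transcripts of a gene share sequence, so their separate estimates are less certain than the level of the gene.

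In member 8, both transcripts kept their shares, transcript 1 making up 60.9% of the gene in control, 59.8% under LPS and 59.0% in extract cells. In member 9 the shares of transcript 1 were 47.1%, 52.5% and 54.6%. In member 6, all 4 transcripts had lower means in LPS cells. Its transcript 1 measured 14.6 ± 2.5 TPM (SD, n = 3) in control, 4.61 ± 1.1 TPM under LPS and 13.7 ± 2.9 TPM in extract cells. The larger transcripts of these 3 genes all had their lowest mean in LPS cells and a higher one in extract cells.

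Member 13 differed between its transcripts. Its transcript 1 measured 6.26 ± 1.4 TPM (SD, n = 3) in control, 3.87 ± 0.43 TPM under LPS and 15.8 ± 2.5 TPM in extract cells. Transcript 2 measured 7.39 ± 0.81 TPM in control, 2.36 ± 0.11 TPM under LPS and 10.4 ± 2.3 TPM in extract cells. By group means, the share of transcript 1 was 45.9% in control, 62.1% under LPS and 60.4% in extract cells. Its shares in single control and extract libraries overlapped. In control replicate 1 it lay above transcript 2 (7.28 against 6.65 TPM), and in extract replicate 3 it was close to it (13.7 against 12.9 TPM). In member 16 the share of transcript 1 was 70.03% in control, 50.1% under LPS and nearly the same in extract cells, but it was scattered in LPS cells (1.43 ± 1.4 TPM, SD, n = 3) and its LPS values overlapped those of extract cells. In member 17 transcript 3, at 0.747 ± 0.71 TPM (SD, n = 3) under LPS and 0.657 ± 0.57 TPM in extract cells, did not share the higher extract level of the gene. These shares come from the libraries that chose the members and were not tested.

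**Figure D4:**
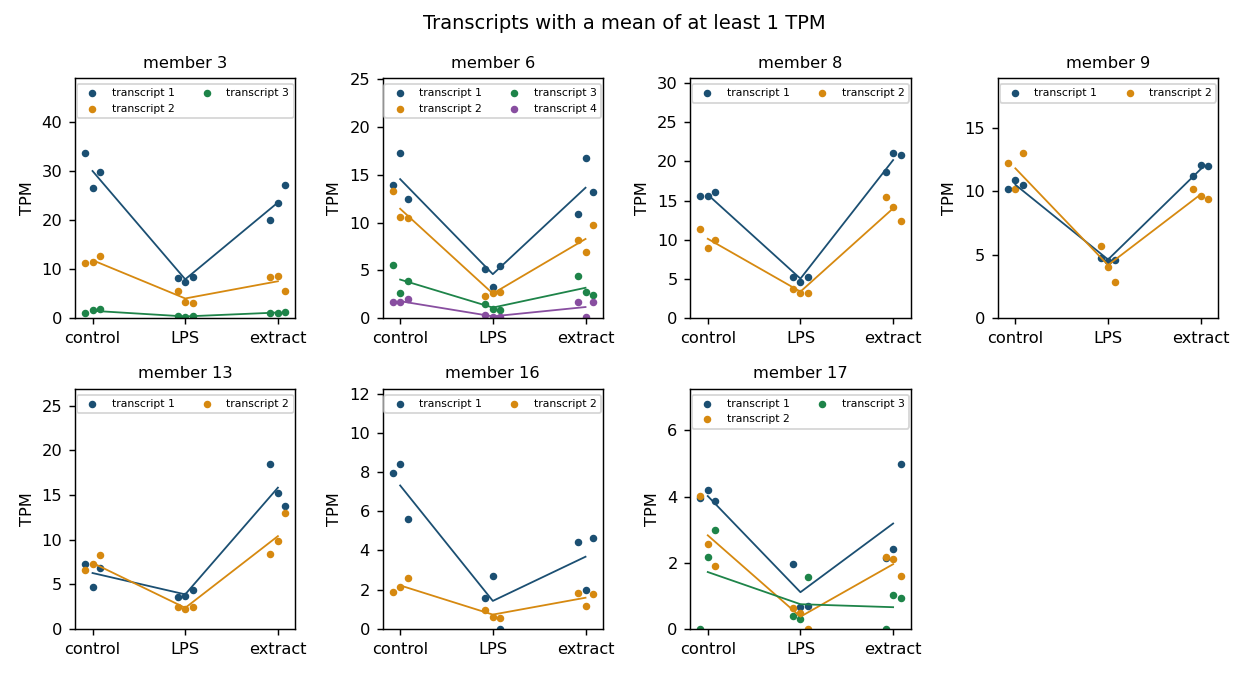
Panels show the 7 members with 2 or more transcripts of at least 1 TPM; points are the 3 libraries of a group, lines join the group means, and the y axis is TPM from 0. In member 8 both lines dip in LPS cells together. In member 13 the transcript with the lower mean in control cells has the higher mean in LPS and extract cells, while the control points of both overlap.

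The limits of the rule cut through a continuous range of values. Just inside the LPS-control limit were members 13, 1 and 7, at -1.02, -1.02 and -1.04, and just outside it were 3 genes at -0.97, -0.97 and -0.95. Those 3 had control means of 3.13, 23.4 and 63.3 TPM, LPS means of 1.1, 11.6 and 32.4 TPM and extract means of 3.24, 27.8 and 71.1 TPM. At the extract-LPS limit, members 19, 26 and 22 stood at 1.04, 1.04 and 1.07 and the nearest genes outside at 0.98, 0.98 and 0.97. At the upper limit of extract versus control, members 13, 25 and 2 stood at 0.90, 0.64 and 0.57 and the nearest genes outside at 1.11, 1.16 and 1.55. Of those outside, the most abundant went from 91.2 TPM in control down to 33.5 TPM under LPS and up to 204 TPM with the extract. The number of members depended on the pseudocount added to TPM, with 72 genes at 0.1 and 6 at 5. Those 6, members 2, 3, 4, 5, 6 and 8, met the rule in every choice of members that was tried.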

How the data were processed

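RNA of 9 HBZY-1 libraries was sequenced, 3 per group, and groups were taken from the labels. The authors deposited TPM for 30560 genes and 54991 transcripts, rounded to 2 decimals. Tools listed in the submitters' processing notes are HISAT2 2.1.0, RSEM 1.3.3 and fastp, with no roles; build, annotation and strandedness are not given in the sources used. Columns were matched to libraries by the code that opens each title.

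The rule was applied to log2(TPM + 1) of the 12192 genes that averaged at least 1 TPM. limma 3.58.1 (R 4.3.3) was fitted to all 9 libraries with a mean for each group (two-sided moderated tests with a mean-variance trend, 6 residual degrees of freedom, Benjamini-Hochberg adjustment over all genes), after a check on simulated data. Standard errors are from this fit. Transcripts were linked to genes where consecutive TPM values summed to the gene's within 0.006 TPM per rounded value. The members and lists were chosen with earlier results of these data known. The 32 gene lists, cell type markers and 15 promoter motifs that had been set down need gene names and were not used. Named identifiers are the 2 members with the largest LPS-control differences and the 2 with the largest extract-LPS differences. Members are otherwise given by number.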

Additional observations from a re-analysis of the deposited data

How the results depend on the processing

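Against 27 members, 72 were chosen with a pseudocount of 0.1, 6 with 5, 76 with a log2 limit of 0.8 and 12 with 1.2. With these pseudocounts the 10 overlapping members became 35 and 1, the 10 below control 22 and 2, and the 7 above control 15 and 3. A filter of 5 TPM left 6 overlapping members, because fewer genes were tested. Median-of-ratios scaling and quantile normalization gave 22 and 23 members, of which 4 lay above control in each; the 5 members lost were the same under both, and 4 of the 5 had been above control. Without a filter the same 27 were chosen, which the pseudocount of 1 nearly fixed in advance. Leaving out 1 library gave 24 to 38 members, 10 to 14 below control, 7 to 18 overlapping and 5 to 12 above, and 16 members were kept in all 9 of these choices. Genes called in LPS versus control went from 1193 higher and 3769 lower to 2102 and 2278 with median-of-ratios scaling and to 1940 and 2402 with quantile normalization, both of which centre the libraries. The other counts of called genes stayed within 1.5 times under the alternatives run. With the replicate number as a block, 1105 higher and 3553 lower genes were called for LPS against control, 4099 and 2973 for extract against LPS and 2608 and 3462 for extract against control. Between groups, the deviations of libraries with the same number correlated at -0.0554 to 0.0951, against -0.11 to 0.0894 for libraries with unlike numbers. The numbers were therefore not taken as pairs, although 6 of 9 libraries deviated most like one of their own number. The alternatives for gene lists were not run for want of gene names. Without depth, no detection limit can be given for members near 1 TPM.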
